A study of Mus musculus with 11 samples.

Results

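Gq signalling was examined through 8 genes of the hypothalamus, the brain region that controls feeding, drinking, body temperature and hormone release. The 8 genes are Gnaq, Gna11, Grm5, Plcb1, Plcb4, Itpr1, Prkcb and Prkch, out of 14864 genes in the deposited table. They were chosen by name, with their differences between the genotypes already known, so the genotype differences below are a description and carry no p-value. All 8 had a mean of at least 1 CPM (counts scaled to library size, corrected by the authors) and so entered the fit, as did 13184 genes in all. RNA was sequenced from hypothalamus pieces of mice aged 60 to 70 postnatal days. The Het group held 6 mice, 3 females and 3 males, heterozygous for a loss of Myt1l, the gene of a neuronal zinc finger transcription factor. The WT group consisted of 5 wild-type mice, 2 females and 3 males. No source used here gives the form of the mutated allele or the genetic background.

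Gq proteins carry signals from receptors for glutamate, acetylcholine, serotonin and many neuropeptides to phospholipase C on the inner face of the cell membrane. Phospholipase C splits the membrane lipid PIP2 into IP3, which opens calcium channels of the endoplasmic reticulum, and diacylglycerol, which recruits protein kinase C. In hypothalamic neurons this route raises intracellular calcium and changes excitability in response to peptides and transmitters.

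The level of the targeted gene did not separate the labelled groups, and 2 libraries went furthest against their labels. Myt1l had a lowest, median and highest value of 58.7, 64.6 and 130 CPM in Het libraries, against 89.3, 70.5, 83.5, 87.2 and 51.1 CPM in WT replicates 3, 4, 6, 7 and 11. Myt1l averaged 76.3 ± 26.9 CPM in Het mice and 76.3 ± 15.9 CPM in WT mice (SD, n = 6 and 5). Its log2 difference, Het minus WT, was -0.01 (SE 0.18). The highest value of all 11 libraries was in the library labelled Het replicate 9 and the lowest in the library labelled WT replicate 11, so the genotype differences are also given without these 2 libraries. Outside them the groups still overlapped, with Het replicate 8 at 75.9 CPM and WT replicate 4 at 70.5 CPM. Whether the labels are right was not tested. Corrected counts summed to between 22921048 and 23799167 in Het libraries and between 23701175 and 24941704 in WT libraries. From the step between values, 1 corrected count was worth 0.0417 to 0.0423 CPM. That step did not follow the totals, with 0.0419 CPM at the lowest total (Het replicate 5) and 0.0422 CPM at the highest (WT replicate 3). The tissue label was checked on 14 hypothalamic marker genes, and none of them was at 0 in any library. Avp, Oxt and Hcrt, which encode vasopressin, oxytocin and orexin, had at least 215, 197 and 774 CPM in every library. The transcription factor markers were low, with 0.42 to 1.22 CPM for Rax and 0.96 to 3.23 for Nkx2-1. Sim1 had 1.09 to 2.52 CPM, Otp 1.81 to 3.73 and Nr5a1 2.14 to 3.67.

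Gnaq and Gna11 encode the closely related alpha subunits that give Gq and G11 proteins their name. In the mm10 build, Gnaq lies at chr19:16132831-16387463 on the plus strand and spans 255 kb. Gna11 lies at chr10:81528724-81545190 on the minus strand and spans 16.5 kb, the shortest of the 8 genes. Bases upstream of both genes are shown because Gnaq differed the more clearly of the pair between the genotypes. They come from RefSeq windows of the 250 bases before the RefSeq start, in build GRCm38.p6, whose coordinates are those of mm10, and run 5′ to 3′ on the strand of the gene. The coordinates of the genes are from GENCODE, whose starts differ from those of RefSeq. The Gnaq window ends before the GENCODE start, and the Gna11 window runs past it, so only its 222 bases before the GENCODE start are printed. Bases after the RefSeq start were found in a GENCODE transcript of the gene for Gna11 and not for Gnaq. Capitals mark the GC box GGGCGG, a letter pattern bound by Sp-family factors, on either strand.
Gnaq, chr19:16132434-16132683, plus strand: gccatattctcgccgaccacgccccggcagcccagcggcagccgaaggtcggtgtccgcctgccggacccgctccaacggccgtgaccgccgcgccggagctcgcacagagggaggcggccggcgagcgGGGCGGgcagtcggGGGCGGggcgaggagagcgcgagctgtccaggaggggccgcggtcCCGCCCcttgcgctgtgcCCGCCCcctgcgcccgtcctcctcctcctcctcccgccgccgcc
Gna11, chr10:81545191-81545412, minus strand: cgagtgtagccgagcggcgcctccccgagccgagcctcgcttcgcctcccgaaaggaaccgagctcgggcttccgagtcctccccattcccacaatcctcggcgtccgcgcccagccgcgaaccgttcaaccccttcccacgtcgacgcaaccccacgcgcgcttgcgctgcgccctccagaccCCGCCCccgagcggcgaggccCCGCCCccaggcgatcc

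The Gnaq stretch held 4 GC boxes and the Gna11 stretch 2. GC content over the whole window was 79.2% for Gnaq and 73.2% for Gna11, against a median of 52.4% over all 32851 promoters of the table. Of the 8 genes, 5 matched the table (Gnaq, Gna11, Plcb1, Plcb4 and Prkcb) with 6 windows in all, and 5 of these windows held a GC box, as did 32.7% of all promoters. AAGTT, the core letters bound by MYT1-family zinc fingers, was found on either strand in 1 of the 6 windows, that of Plcb1, and in 35.3% of all promoters. The Plcb1 match lies past the GENCODE start of the gene. The Prkcb window and both Plcb4 windows lie wholly past the GENCODE starts, so they are not upstream of the genes by GENCODE. CCAAT (33.8% of all promoters), CACGTG (6.02%), TGACTCA (4.46%) and TGACGTCA (1.55%) were in none of the 6 windows. These matches are a description of the letters and not of binding.

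All 8 genes had higher mean levels in Het hypothalamus, by a fold of means between 1.02 for Plcb4 and 2.06 for Prkch. The 3 genes in which all 6 Het libraries lay above all 5 WT libraries were Gnaq, Itpr1 and Prkcb, a pattern found in 2.02% of the 13184 genes tested. With limma's adjusted p (Benjamini-Hochberg over all genes tested, threshold 0.05), 453 genes passed between the genotypes, which is 3.44%. Of these, 303 (2.3%) were higher and 150 lower in Het mice. Gnaq, Gna11, Grm5, Itpr1, Prkcb and Prkch are among the 303, and nothing is read from that count, since the genes were chosen on this comparison. The median log2 difference over all genes tested was -0.02, with 47.0% of genes positive. In bulk tissue, a different number of cells of a type and a different amount of RNA per cell cannot be told apart.

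**Figure D1:**
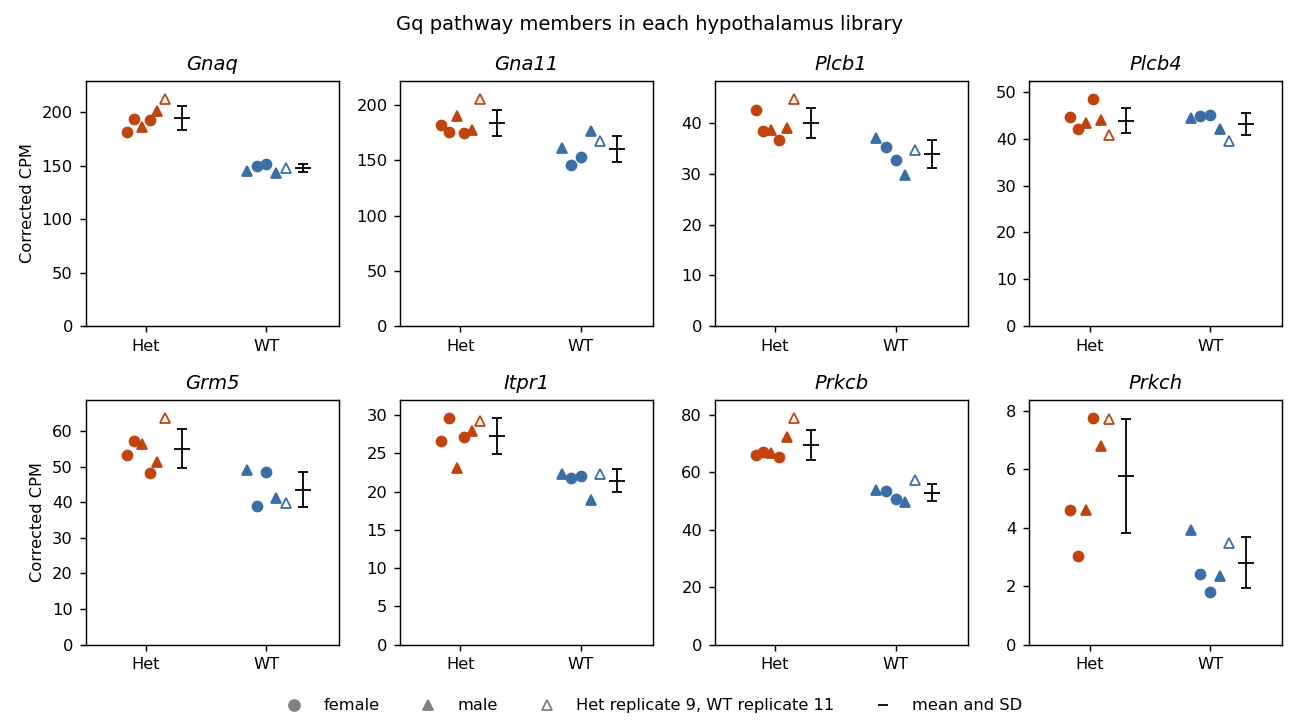
Corrected CPM of the 8 genes in each library, with 6 Het libraries left and 5 WT libraries right in each panel, circles for females and triangles for males. Black bars give the mean and SD, and open symbols mark the library labelled Het replicate 9 and the one labelled WT replicate 11. Gnaq, Itpr1 and Prkcb show no overlap between the groups, and the Plcb4 values of the 2 groups lie over each other.

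Grm5, at chr7:87584168-88134907 on the plus strand, encodes the metabotropic glutamate receptor mGluR5, which couples to Gq and G11. It had a lowest, median and highest value of 48.3, 54.9 and 63.9 CPM in Het libraries, against 49.2, 39.0, 48.5, 41.3 and 39.9 CPM in WT replicates 3, 4, 6, 7 and 11. All Het libraries but 1 lay above the highest WT library, and the lowest, Het replicate 7, lay below 2 WT libraries. Grm5 averaged 55.1 ± 5.43 CPM in Het mice and 43.6 ± 4.87 CPM in WT mice (SD, n = 6 and 5), a log2 difference of 0.34 (SE 0.086). Here and below, log2 differences are Het minus WT, from the fit of log2(CPM + 0.5) with genotype and sex. Without the libraries labelled Het replicate 9 and WT replicate 11 the Grm5 difference was 0.27.

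Among the alpha subunits, Gnaq had a lowest, median and highest value of 181, 193 and 212 CPM in Het libraries, against 145, 150, 152, 143 and 148 CPM in WT replicates 3, 4, 6, 7 and 11. The WT values lay within 10 CPM of each other, and every Het library stood well above them. Gnaq averaged 194 ± 11.1 CPM in Het mice and 148 ± 3.50 CPM in WT mice (SD, n = 6 and 5), a log2 difference of 0.40 (SE 0.053). The difference was 0.37 without the 2 libraries that went against their labels.

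Gna11 had a lowest, median and highest value of 175, 180 and 205 CPM in Het libraries, against 161, 146, 153, 176 and 167 CPM in WT replicates 3, 4, 6, 7 and 11. The groups overlapped, with 4 of 6 Het libraries above the highest WT library. Its means were 184 ± 11.7 CPM in Het mice and 161 ± 11.8 CPM in WT mice (SD, n = 6 and 5), a log2 difference of 0.21 (SE 0.054). Without the 2 libraries the difference was 0.19.

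Per kb of its longest annotated transcript, Gna11 stood above Gnaq in every library. The ratio of Gnaq to Gna11 per kb averaged 0.639 ± 0.0386 in Het mice and 0.558 ± 0.0518 in WT mice (SD, n = 6 and 5). It ranged from 0.592 to 0.684 in Het libraries, against 0.492 to 0.621 in WT libraries. The ranges overlapped, and 4 of 6 Het libraries lay above the highest WT library.

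Plcb1 and Plcb4, neighbours on chromosome 2 at chr2:134786067-135475258 and chr2:135659011-136014593 on the plus strand, encode phospholipase C beta enzymes that active Gq alpha subunits switch on. Plcb1 had a lowest, median and highest value of 36.7, 38.9 and 44.8 CPM in Het libraries, against 37.1, 35.3, 32.7, 29.9 and 34.8 CPM in WT replicates 3, 4, 6, 7 and 11. Only Het replicate 7 fell below the highest WT library, WT replicate 3. The averages of Plcb1 were 40.1 ± 3.01 CPM in Het mice and 34.0 ± 2.76 CPM in WT mice (SD, n = 6 and 5), a log2 difference of 0.24 (SE 0.079). An exon of 9630028H03Rik on the opposite strand shares 178 bases (1.6%) of the Plcb1 exons, and reads there could not be assigned to a strand with the information used here.

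Plcb4 had a lowest, median and highest value of 40.8, 43.7 and 48.4 CPM in Het libraries, against 44.4, 44.7, 45.0, 42.2 and 39.6 CPM in WT replicates 3, 4, 6, 7 and 11. The groups lay over each other, with 1 Het library above the highest WT library. Plcb4 averaged 43.9 ± 2.64 CPM in Het mice and 43.2 ± 2.30 CPM in WT mice (SD, n = 6 and 5), a log2 difference of 0.01 (SE 0.066). The sign of that difference was not stable: it was -0.01 with each library centred on its median and -0.08 after adjustment for transcript length and GC content. The ratio of Plcb1 to Plcb4 per kb averaged 0.665 ± 0.0799 in Het mice and 0.571 ± 0.0516 in WT mice (SD, n = 6 and 5). Without the libraries labelled Het replicate 9 and WT replicate 11, the log2 differences were 0.21 for Plcb1 and 0.01 for Plcb4.

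Itpr1, at chr6:108213096-108551109 on the plus strand, encodes the type 1 IP3 receptor, the calcium release channel that IP3 opens. It had a lowest, median and highest value of 23.1, 27.5 and 29.7 CPM in Het libraries, against 22.3, 21.7, 22.0, 18.9 and 22.3 CPM in WT replicates 3, 4, 6, 7 and 11. The groups did not overlap, but the lowest Het library, replicate 5, was within 1 CPM of the highest WT library. Means of Itpr1 were 27.2 ± 2.37 CPM in Het mice and 21.4 ± 1.45 CPM in WT mice (SD, n = 6 and 5), a log2 difference of 0.33 (SE 0.086), and 0.32 without the 2 libraries. Exons of 2 genes on the opposite strand, Gm44101 and Gm44040, share 181 and 108 bases of the Itpr1 exons (0.988% and 0.59%).

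Prkcb, at chr7:122288751-122634402 on the plus strand, encodes protein kinase C beta, a conventional isoform that needs both calcium and diacylglycerol. Its lowest, median and highest values were 65.3, 66.9 and 79.0 CPM in Het libraries, against 53.6, 53.3, 50.6, 49.5 and 57.2 CPM in WT replicates 3, 4, 6, 7 and 11. Every Het library was above every WT library. Prkcb averaged 69.4 ± 5.28 CPM in Het mice and 52.9 ± 3.00 CPM in WT mice (SD, n = 6 and 5), a log2 difference of 0.40 (SE 0.065), and 0.38 without the 2 libraries.

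Prkch, at chr12:73584796-73778185 on the plus strand, encodes protein kinase C eta, an isoform that responds to diacylglycerol without calcium. It was the lowest of the 8 genes, with a lowest, median and highest value of 3.02, 5.69 and 7.76 CPM in Het libraries, against 3.92, 2.42, 1.80, 2.35 and 3.49 CPM in WT replicates 3, 4, 6, 7 and 11. Het replicate 4 lay inside the WT range and the other 5 Het libraries lay above it. The means were 5.75 ± 1.95 CPM in Het mice and 2.80 ± 0.876 CPM in WT mice (SD, n = 6 and 5), a 2.06-fold ratio of means. The log2 difference, 0.94 (SE 0.22), had the highest standard error of the 8, and it was 0.92 without the 2 libraries. The ratio of Prkcb to Prkch per kb averaged 14.6 ± 5.396 in Het mice and 22.1 ± 6.04 in WT mice (SD, n = 6 and 5).

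Compared per kb of longest transcript, the 8 genes kept 1 order of mean levels in both genotypes. Gna11 was highest, with a mean of 54.0 ± 3.44 CPM per kb in Het mice and 47.1 ± 3.45 in WT mice (SD, n = 6 and 5). Gnaq followed at 34.5 ± 1.96 CPM per kb in Het mice and 26.2 ± 0.620 in WT mice, and Prkcb came next at 20.9 ± 1.59 in Het mice and 15.9 ± 0.902 in WT mice. The alpha subunits thus stood above the receptor, enzymes and channel of the list. Plcb4 had 8.41 ± 0.506 CPM per kb in Het mice and 8.28 ± 0.441 in WT mice, Grm5 6.85 ± 0.675 in Het mice and 5.42 ± 0.605 in WT mice, and Plcb1 5.57 ± 0.417 in Het mice and 4.71 ± 0.383 in WT mice. The lowest were Itpr1, with 2.76 ± 0.240 CPM per kb in Het mice and 2.17 ± 0.147 in WT mice, and Prkch, with 1.58 ± 0.537 in Het mice and 0.770 ± 0.241 in WT mice. Of neighbours in this order, Grm5 and Plcb1 overlapped over WT libraries, at 4.85 to 6.11 and 4.15 to 5.15 CPM per kb, and the other neighbouring pairs did not. Over Het libraries Grm5, at 6.00 to 7.93 CPM per kb, overlapped both Plcb1 (5.09 to 6.21) and Plcb4 (7.81 to 9.28).

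**Figure D2:**
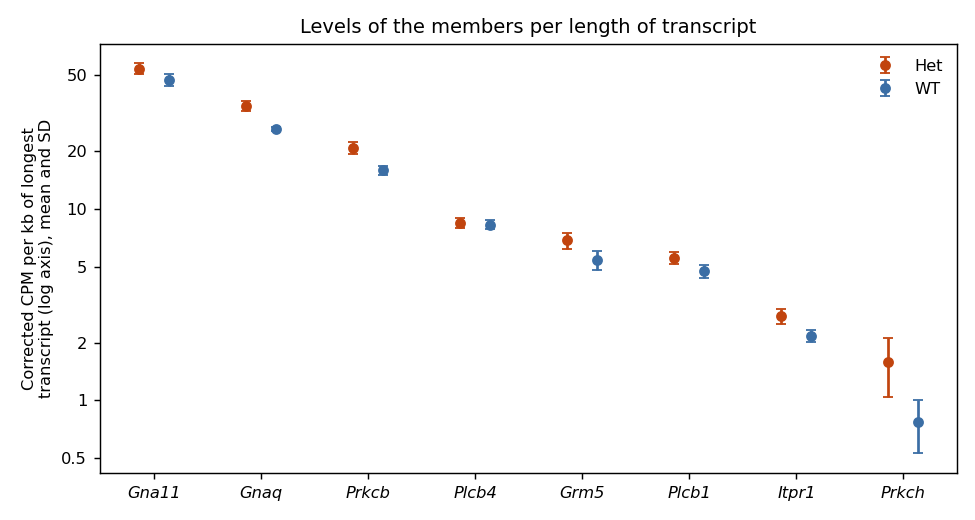
Mean corrected CPM per kb of longest transcript (log axis) with SD for each gene, Het (n = 6) left of WT (n = 5). Genes run from Gna11, at 54.0 CPM per kb in Het mice and 47.1 in WT mice, to Prkch, at 1.58 in Het mice and 0.770 in WT mice.

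A single library stood high in most of the genes. The library labelled Het replicate 9 had the highest value of all 11 in 5 of the 8 genes, Het replicate 7 in 2 and Het replicate 4 in 1. The lowest value was in WT replicate 7 for 4 genes, in WT replicate 4 for 2, and in WT replicates 6 and 11 for 1 each. With any 1 library left out, the log2 difference of Gnaq lay between 0.37 and 0.42, that of Prkcb between 0.36 and 0.42, that of Prkch between 0.80 and 1.05 and that of Gna11 between 0.19 and 0.24. Grm5 then lay between 0.30 and 0.41, Itpr1 between 0.29 and 0.38, Plcb1 between 0.19 and 0.27 and Plcb4 between -0.01 and 0.03. The count of 6 called genes turned on single libraries, as did the count over all 13184 genes, which was 140 to 820 in these fits. The number of the 8 genes past the threshold was 2 without Het replicate 2 or 9 or WT replicate 4 or 7, 3 without Het replicate 4 or 8 or WT replicate 6, and 4 to 6 without any other library. Without both the libraries labelled Het replicate 9 and WT replicate 11, 164 genes (1.24%) were higher in Het mice at the threshold, Gnaq and Prkcb among them.

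The sample identifiers begin with 1 of 3 prefixes, which no label explains. Prefix 14308 holds 2 Het and 2 WT libraries, all male, prefix 14309 holds 4 Het and 2 WT libraries, and prefix 14111 holds 1 WT library only, so it gives no difference of its own. Within prefix 14308 the log2 differences were 0.42 for Gnaq, 0.43 for Prkcb, 0.30 for Itpr1, 0.26 for Grm5, 0.22 for Plcb1, 0.12 for Gna11, 0.01 for Plcb4 and 0.78 for Prkch. Within prefix 14309 they were 0.40 for Gnaq, 0.41 for Prkcb, 0.35 for Itpr1, 0.34 for Grm5, 0.30 for Plcb1, 0.25 for Gna11, 0.02 for Plcb4 and 1.14 for Prkch. None of the 8 genes passed the threshold within a prefix, where 6 and 16 genes did in all.

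Of the 8 genes, 7 span 193 to 689 kb and Gna11 spans 16.5 kb, against a median of 25.5 kb for the genes tested. By longest transcript, Gna11 (3414 bases) and Prkcb (3328) were below the median of 3450 bases, Prkch (3634) was just above it, and the other 5 ran from 5217 bases for Plcb4 to 9870 for Itpr1. After each library was adjusted for its dependence on transcript length and GC content, the log2 differences were 0.09 for Plcb1, 0.18 for Grm5, 0.15 for Itpr1 and 0.29 for Gnaq, each lower than without the adjustment. Those of Gna11 (0.21), Prkcb (0.40) and Prkch (0.93) stood beside 0.21, 0.40 and 0.94 without the adjustment.

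**Figure D3:**
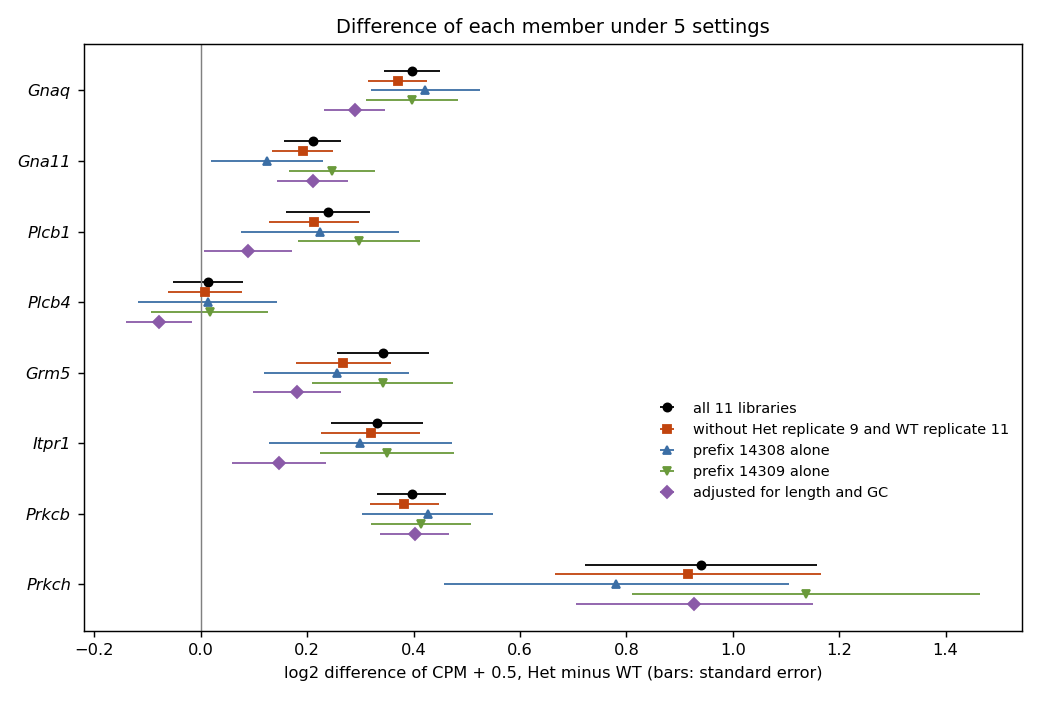
Log2 difference (Het minus WT) of each gene with its standard error under 5 settings: all 11 libraries, without the libraries labelled Het replicate 9 and WT replicate 11, within each prefix, and after adjustment for transcript length and GC content. Prkcb lies between 0.38 and 0.43 in all 5, and Plcb1, Grm5 and Itpr1 move toward 0 in the last setting.

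Sex was not used in the choice of the genes, so it could be tested. None of the 8 genes passed the threshold between females and males by limma's adjusted p, and 26 genes did in all (0.197% of those tested). The lowest adjusted p among the 8 was 0.334, for Gna11, with 166 ± 15.8 CPM in females and 180 ± 16.0 CPM in males (SD, n = 5 and 6) and a log2 difference of -0.13 (SE 0.054, female minus male). Prkch had the farthest difference from 0, -0.42 (SE 0.22, adjusted p 0.457 by limma), and the other 6 lay between -0.09 and 0.08. Gna11 was also the 1 gene of the 8 with an unadjusted p under 0.05. Sex differences of the 8 genes were not detectable at this number of animals. Sex was also uneven over the identifier prefixes described above, and the estimates moved with the prefix as a further term of the fit (a block). They were then -0.66 for Prkch, -0.22 for Prkcb, -0.16 for Gna11, -0.14 for Plcb1, -0.09 for Gnaq and 0.16 for Plcb4, each farther from 0. Grm5 was nearer to 0, at -0.04, and Itpr1 changed sign, to -0.05.

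The genotype difference was of the same sign in both sexes for each of the 8 genes. The genes were chosen on this comparison over the same libraries, so the shared sign is a description. For Gnaq it was 0.33 in females and 0.45 in males, for Prkcb 0.35 in females and 0.44 in males, and for Itpr1 0.34 in females and 0.33 in males. Grm5 differed by 0.28 in females and 0.39 in males, Gna11 by 0.25 in females and 0.18 in males, Plcb1 by 0.20 in females and 0.27 in males, and Prkch by 1.03 in females and 0.87 in males. Plcb4 was at 0.00 (SE 0.10) in females and 0.02 (SE 0.090) in males, so its sign is not settled in either sex. The test of the difference between the sexes (a genotype by sex term in limma) called no gene among all tested (0%), with 613 genes at an unadjusted p under 0.05 and 0 of the 8 among them. Among the 8 genes the lowest adjusted p of that term was 0.982, and the estimates ran from -0.13 for Gnaq to 0.16 for Prkch.

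The other genes of the pathway were taken from a list of 104 by role, from receptors to targets, of which 91 were tested. Of these, 4 rose and none fell (4.40%, against 3.44% of all genes tested), and 87 did not pass. The list was drawn up with earlier results of these data known, so its counts and p-values are no independent test. Of the genes named below, Tacr1, Prkce and Homer2 were added after their values were seen. At an unadjusted p under 0.05 by limma, 3 of the 91 were lower in Het mice. The number higher at that level and the share over all genes tested were not counted, so nothing is read from the 3. The median log2 difference of the 91 was 0.08, with 57 positive, against -0.02 over all genes tested. Those that rose were Rgs8, Cds2, Dgkb and Rasgrp1, none of them a receptor, an alpha subunit or a phospholipase.

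Rgs8 encodes a protein that speeds the switching off of G protein alpha subunits. It rose to 45.9 ± 5.78 CPM in Het mice, against 34.4 ± 2.65 CPM in WT mice (SD, n = 6 and 5), with a log2 difference of 0.43 (SE 0.081, adjusted p 0.0120 by limma) and 5 of 6 Het libraries above the highest WT library. Its call held in all 11 fits that left out 1 library and without both libraries that went against their labels (0.39, adjusted p 0.0485 by limma). It was lost after adjustment for length and GC (0.26, adjusted p 0.132 by limma).

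Cds2 encodes a CDP-diacylglycerol synthase, which feeds the resynthesis of the lipid that phospholipase C splits. It rose to 71.6 ± 4.05 CPM in Het mice, against 58.9 ± 1.56 CPM in WT mice (SD, n = 6 and 5), with no overlap and a log2 difference of 0.28 (SE 0.060, adjusted p 0.0218 by limma). Without both libraries the difference was 0.31 (adjusted p 0.0385 by limma). The call was lost without Het replicate 8, WT replicate 6 or WT replicate 7 (0.25, 0.28 and 0.26), and after adjustment for length and GC (0.11, adjusted p 0.403 by limma).

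Dgkb encodes diacylglycerol kinase beta, which turns diacylglycerol into phosphatidic acid. It rose to 114 ± 12.4 CPM in Het mice, against 90.9 ± 9.59 CPM in WT mice (SD, n = 6 and 5), a log2 difference of 0.34 (SE 0.073, adjusted p 0.0224 by limma) with 5 of 6 Het libraries above the highest WT library. The call was lost without both libraries (0.27, adjusted p 0.0758 by limma), and also without Het replicate 8 or 9 (0.32 and 0.30) or WT replicate 4 or 6 (0.33 and 0.35). After adjustment for length and GC the Dgkb difference was 0.22 (adjusted p 0.156 by limma). It was 0.17 within prefix 14308 and 0.45 within prefix 14309.

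Rasgrp1 encodes an exchange factor that diacylglycerol recruits to activate Ras. It rose to 41.2 ± 5.78 CPM in Het mice, against 30.3 ± 5.10 CPM in WT mice (SD, n = 6 and 5), a log2 difference of 0.46 (SE 0.11, adjusted p 0.0330 by limma). The difference was 0.11 within prefix 14308 and 0.68 within prefix 14309. The call was lost without both libraries (0.44, adjusted p 0.0837 by limma), without any 1 of Het replicates 2, 4, 8 and 9 (0.41, 0.43, 0.48 and 0.42) or WT replicates 4, 6 and 7 (0.43, 0.39 and 0.49), and after adjustment for length and GC (0.37, adjusted p 0.102 by limma).

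By role, none of the 29 receptors tested passed by limma, and 11 had positive differences, with a median of -0.07. At an unadjusted p under 0.05 by limma there were 7 receptors, counted in either direction. The share of all genes tested at that level was not counted, so nothing is read from the 7. The receptor with the highest level per kb was Ntsr2, a neurotensin receptor of astrocytes, at 141 ± 61.8 CPM in Het mice and 176 ± 62.3 CPM in WT mice (SD, n = 6 and 5; log2 difference -0.40, adjusted p 0.178 by limma). Tacr1, the substance P receptor, did not pass with all libraries (0.61, adjusted p 0.0586 by limma) and passed without the 2 libraries that went against their labels (0.81, adjusted p 0.0323 by limma). After adjustment for length and GC its difference was 0.53 (adjusted p 0.130 by limma). The remaining alpha subunit tested, Gna15, was at 2.96 ± 0.998 CPM in Het mice and 3.43 ± 1.17 CPM in WT mice and did not pass (log2 difference -0.18, adjusted p 0.744 by limma).

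None of the 10 phospholipase C genes outside the 8 passed, with 5 positive and a median log2 difference of 0.00. The one with the highest level per kb, Plcd4, had a difference of 0.04 (adjusted p 0.860 by limma), and 29.8% of its exon length is shared with Zfp142 on the opposite strand. Genes of IP3 receptors and IP3 turnover had 0 of 6 past the threshold, with 6 positive and a median of 0.08, and Impa1, an inositol monophosphatase, was at 84.2 ± 7.74 CPM in Het mice and 84.7 ± 9.65 CPM in WT mice (SD, n = 6 and 5). The phospholipases include enzymes of types other than beta, and the IP3 genes include enzymes of IP3 turnover. Not all of them therefore act at the same steps as Plcb1, Plcb4 and Itpr1.

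Diacylglycerol turnover had 1 of 11 genes past the threshold (Dgkb), with 8 positive and a median log2 difference of 0.11. The kinases and exchange factors that diacylglycerol activates had 1 of 10 (Rasgrp1), with 9 positive and a median of 0.17. Prkce, a protein kinase C isoform activated by diacylglycerol without calcium, was at 0.28 with all libraries (adjusted p 0.0683 by limma) and at 0.35 without the 2 libraries (adjusted p 0.0425 by limma). Its difference was 0.16 after adjustment for length and GC (adjusted p 0.335 by limma).

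PIP2 supply had 1 of 7 genes past the threshold (Cds2), with 6 positive and a median of 0.10, and Pip5k1a, a kinase that makes PIP2, had a difference of 0.12 (adjusted p 0.532 by limma). Regulators and scaffolds had 1 of 9 (Rgs8), with 6 positive and a median of 0.28. Rgs4, the regulator with the highest level per kb, was at 284 ± 33.4 CPM in Het mice and 237 ± 31.1 CPM in WT mice (SD, n = 6 and 5; log2 difference 0.28, adjusted p 0.0692 by limma). Homer2, a scaffold that ties mGluR5 to IP3 receptors, was at 0.68 with all libraries (adjusted p 0.0963 by limma) and at 0.85 without the 2 libraries (adjusted p 0.0415 by limma), against 0.49 after adjustment for length and GC (adjusted p 0.286 by limma). Other effectors of Gq had 0 of 8, with 6 positive and a median of 0.28, and Arhgef25, an exchange factor that Gq activates, was at -0.18 (adjusted p 0.443 by limma).

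**Figure D4:**
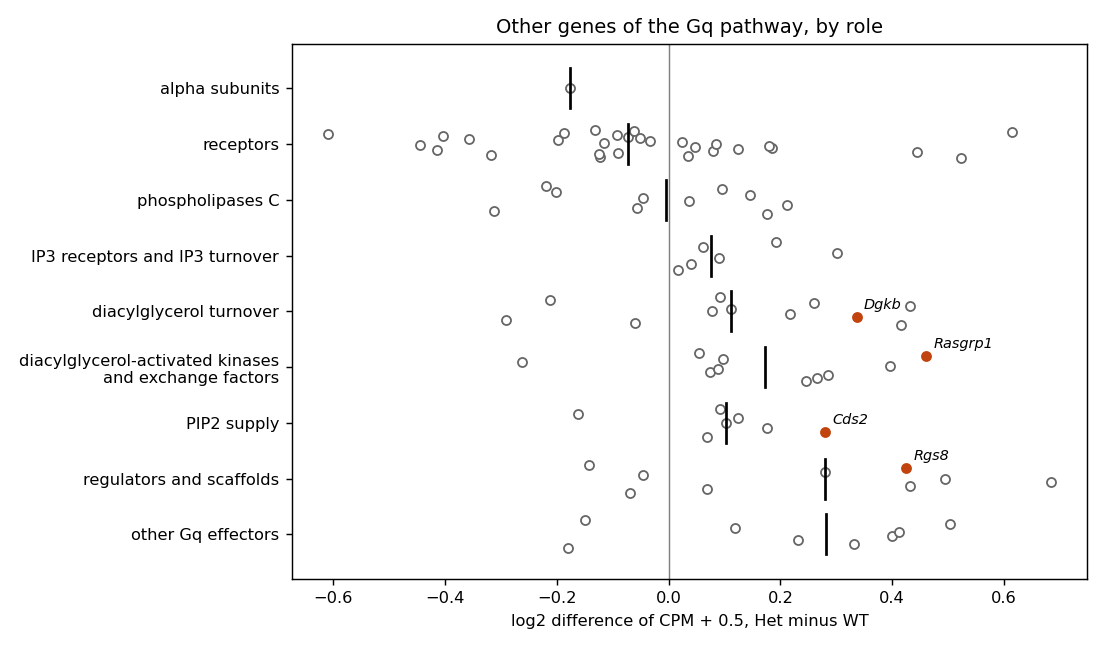
Log2 difference (Het minus WT) of the 91 pathway genes tested outside the 8, by role, with 1 circle per gene, filled and named where limma's adjusted p was under 0.05, and a black line at the median of each role. The 4 named genes lie between 0.28 and 0.46, and the receptors spread to both sides of 0.

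The genes whose levels followed Gnaq most closely over the 11 libraries were Sbno1 (Pearson r 0.977), Kcna1 (0.963), Prkcb (0.959), Ncam1 (0.956) and Rgs7bp (0.956), as a description over log2(CPM + 0.5). Kcna1 encodes a voltage-gated potassium channel subunit, Ncam1 a neural cell adhesion molecule, and Rgs7bp the membrane anchor of R7-type RGS proteins. The libraries share the authors' correction, and r includes the split of Gnaq between the genotypes. Among 13183 genes ordered by r, Prkcb was at place 3, Itpr1 at 37, Grm5 at 216, Plcb1 at 293, Prkch at 315, Gna11 at 463 and Plcb4 at 5406. After genotype and sex were taken out, the closest were Tnfrsf13b (0.968), Llph (0.965), Hspa4l (0.956), Hmgcll1 (0.950) and Vamp9 (0.941), none of which was among the first 5 with genotype left in. They are the highest of 13183 values over 11 libraries, and no test was made. Tnfrsf13b (1.75 CPM in Het and 0.981 in WT mice) and Vamp9 (0.924 and 1.18) were near the filter of 1 CPM. With genotype and sex taken out, Prkcb had r 0.75 and Itpr1 0.68, whereas the other 5 genes lay between -0.21 for Plcb4 and 0.28 for Grm5.

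Markers of neighbouring brain regions also differed between the genotypes. The summed level of 14 striatal markers was 619 to 1048 CPM in Het libraries, against 456 to 747 CPM in WT libraries, with 4 of 6 Het libraries above the highest WT library. All 14 had positive differences (median 0.45), 6 of them rose, and none was at 0. The summed thalamic markers were 88.2 to 127 CPM in Het libraries, against 79.4 to 86.5 CPM in WT libraries, with no overlap, and 1 of 7 tested markers rose. The hypothalamic markers summed to 2015 to 3286 CPM in Het libraries, against 2992 to 3922 CPM in WT libraries, and 5 of 13 tested fell. The cortical and hippocampal markers summed to 144 to 217 CPM in Het libraries, against 139 to 203 CPM in WT libraries, and none of 7 tested passed. No marker of neurons, astrocytes, oligodendrocytes, microglia, endothelium or choroid plexus passed.

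The library labelled Het replicate 9, highest in 5 of the 8 genes, had the highest striatal sum (1048 CPM) and the highest thalamic sum (127 CPM) and the lowest hypothalamic sum (2015 CPM). It also had the highest cortical and hippocampal sum (217 CPM) and oligodendrocyte sum (13284 CPM). Het replicate 7, highest in 2 of the 8 genes, had the lowest striatal sum (619 CPM) and the highest hypothalamic sum (3286 CPM) of the Het libraries. The library labelled WT replicate 11 had the highest striatal sum of the WT libraries (747 CPM), with Gnaq at 148 CPM. The part of regional markers in the differences of the 8 genes was not tested.

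**Figure D5:**
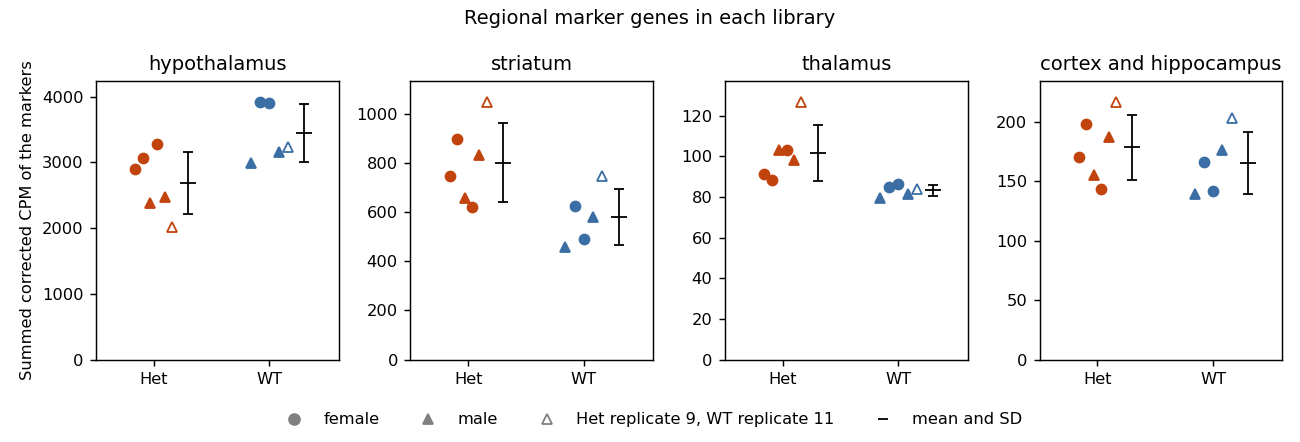
Summed corrected CPM of marker genes of 4 brain regions in each library, Het left of WT, with circles for females, triangles for males and black bars for the mean and SD. Thalamic sums do not overlap between the groups (88.2 to 127 CPM in Het, 79.4 to 86.5 CPM in WT), striatal sums lie higher in most Het libraries, and hypothalamic sums lie lower in most.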

How the data were processed

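Per the labels' protocols, a Zymo kit served for RNA extraction and the SMARTer Ultra Low RNA kit for library preparation. The tools in the submitters' processing notes are Trimmomatic, Bowtie2, STAR and HTSeq, without versions, and the build is mm10. The deposited values are log2 CPM plus a small constant after a correction named RUVr in the deposited table's name. The lowest log2 value was -3.574 and the upper quartile 5.473 in every library. No source used here gives the settings of the correction or whether counting used strand. CPM were recovered by back-transforming and subtracting the floor, and 100% of values were then whole multiples of 1 step per library (tolerance 0.02). These are corrected counts, so raw depth is unknown, and no counting interval is given.

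limma 3.58.1 in R 4.3.3 (lmFit, eBayes with a trend) was fitted to log2(CPM + 0.5) of the 13184 of 14864 genes with a mean of at least 1 CPM, which left out 1680. Genotype and sex were terms, with their product for the interaction. Tests were two-sided, adjusted by Benjamini-Hochberg over all genes tested, with a threshold of 0.05. P-values measure the spread between animals left after the authors' correction, which can be too small. Transcript lengths, GC content and coordinates came from the GENCODE vM21 annotation of mm10, in which 14856 genes were found. The genes named are the 8 members, pathway genes past the threshold, the gene with the highest CPM per kb in each role, and the 5 closest to Gnaq by Pearson r without predicted-gene names, and 1 gene that the rule takes is not reported here. Tacr1, Prkce and Homer2 were added after their values were seen. The members and lists were chosen with earlier results of these data known. Alternatives changed the scale, pseudocount, filter, normalization, model and libraries used. The method was tested on simulated data.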

Additional observations from a re-analysis of the deposited data

Results flagged for a closer look

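Across 24 groups of values (the 8 genes and the 4 pathway genes that rose, each over the 6 Het and the 5 WT libraries), 1 library stood apart from the rest of its group. Itpr1 in WT replicate 7 was at 18.9 CPM, below the other 4 WT libraries. Its gap to the nearest of them was 0.836 of the WT range, above the critical value of 0.710. Chance gives about 1 such library in 20 groups.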

How the results depend on the processing

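Over 29 alternatives, which included leaving out each library in turn, the genotype differences kept their sign for Gnaq (0.29 to 0.46), Gna11 (0.12 to 0.26), Grm5 (0.18 to 0.41), Itpr1 (0.15 to 0.47), Plcb1 (0.09 to 0.30), Prkcb (0.35 to 0.44) and Prkch (0.78 to 1.14, over 28), and not for Plcb4 (-0.08 to 0.05). The genes were chosen on this comparison, so the kept signs are a description. Changes to the filter, the trend or the residual degrees of freedom leave a difference as it is. The prefix as a block gave the same differences as leaving out WT replicate 4. The highest Itpr1 value came from the fit with a replicate block, which rests on replicate numbers 4 and 7 only. Of the 8 genes, 6 passed the threshold in the analysis as reported, against 5 with quantile normalization or without a filter. With a mean of at least 5 CPM, 5 of 7 passed, since Prkch was left out by that filter. The count was 3 with median centring, after adjustment for length and GC or with the prefix as a block. It was 2 without a trend, without a sex term or with 1 residual degree of freedom taken off, and 0 within a prefix or sex. Over all genes tested, 464 passed with quantile normalization, 419 without a filter, 542 with a mean of at least 5 CPM and 476 with median centring. The number of all genes past the threshold between the genotypes, 453, was 300 with the prefix as a block, 229 without both libraries that went against their labels (203 of them shared), 200 without a sex term, 189 with 1 residual degree of freedom taken off, 170 without a trend, 161 after adjustment for length and GC, 16 within prefix 14309, 6 within prefix 14308, 1 in males and 0 in females, and 140 to 820 with 1 library left out (lowest without WT replicate 6, highest without WT replicate 3). Pathway genes past it, 4, were 2 without a sex term or with the prefix as a block, 1 without a trend, 0 after adjustment for length and GC, in either sex or in either prefix, and 1 to 7 with 1 library left out. Genes past it between the sexes, 26, were 17 without both libraries, 11 with 1 residual degree of freedom taken off, 10 without a trend, 6 with the prefix as a block, 5 within prefix 14309 and 10 to 62 with 1 library left out. The genotype by sex term called 1 gene within prefix 14309. The cause of these shifts was not tested.

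Of the sex and interaction estimates of the 8 genes, some changed sign, and none of these was past the threshold. The sex difference was 0.0151 for Gnaq and 0.0126 for Plcb1 after adjustment for length and GC, 0.0136 for Gnaq and 0.0193 for Plcb1 without both libraries, and for Itpr1 -0.0468 with the prefix as a block and -0.0523 within prefix 14309. With 1 library left out it ran from -0.0365 to 0.0113 for Gnaq and from -0.0649 to 0.0097 for Plcb1. The interaction was -0.0833 for Gna11 within prefix 14309, 0.0225 for Grm5 without both libraries, and for Itpr1 -0.0094 with median centring, -0.0196 with quantile normalization, -0.0543 after adjustment for length and GC and -0.0532 within prefix 14309. With 1 library left out it ran from -0.132 to 0.0214 for Plcb1, -0.0718 to 0.0294 for Plcb4, -0.271 to 0.0392 for Grm5, -0.0914 to 0.0873 for Itpr1 and -0.161 to 0.454 for Prkch.

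Replicate numbers 4 and 7 occur in both genotypes, but in animals of other prefixes, and deviations from the group means had correlations of 0.131 and -0.0919 between same-numbered libraries, so they share a number only. The fit with a replicate block and no sex term called 46 genes, 0 of the pathway genes and 1 of the 8 (Gnaq). Its genotype difference rests on numbers 4 and 7 only, where number 7 is a female Het and a male WT library. Nothing is read from its calls.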
